A study of Mus musculus with 12 samples.

Results

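The change in gene expression between 24 h and 72 h of MEK inhibition was followed in B16-OVA, a line of mouse melanoma cells made to express ovalbumin as a model antigen. The cultures received 100 nM GDC-0623, an allosteric inhibitor of the kinase MEK (MEKi), on the day after seeding. The samples were taken by their titles, 3 arrays at 72 h against 3 arrays at 24 h, which are 6 of the 12 arrays of the series. The other 6 arrays came from cultures given the solvent DMSO in place of the drug for the same times, 3 at each time, and served as the background for time in culture. All groups shared the cell line, the plating procedure and the collection as snap-frozen cell pellets. The labels did not say whether the groups came from the same plating. No untreated sample taken at the start of treatment was analysed here. The results therefore describe 1 cell line at 1 dose. Nothing in the labels said whether the 3 replicates of a group were separate cultures, so the p-values rest on a spread between arrays that may be technical only. A log2 difference below is the mean log2 signal at 72 h minus that at 24 h, given with its moderated standard error (± SE, 3 arrays against 3), and a gene was called higher or lower when the Benjamini-Hochberg adjusted p of a limma fit over all 45037 probe sets was under 0.05.

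MEK relays growth signals from RAS and RAF to the kinase ERK. Active ERK induces early response genes such as Fos and Egr1 and the ETS factors Etv4 and Etv5. It also induces its own brakes, among them the phosphatase Dusp6 and the Sprouty proteins. The RNA of all these genes is a common readout of pathway activity. In melanoma cells ERK also drives the cell cycle through cyclin D and MYC, while the lineage factor MITF directs pigment genes. Cells kept in the same dish for days also use up amino acids, glucose and oxygen, and the factors ATF4 and HIF respond to those shortages.

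Arrays of the 2 times differed in their labelling controls, a fact that applies to each result below. Bacterial RNAs are spiked into the sample before labelling, and the difference between the log2 signals of their 3' and 5' probe sets reflects how long the labelled copies were. For the Dap spike it was 2.02, 2.14 and 2.08 at 24 h and 1.51, 1.42 and 1.35 at 72 h with MEKi, so the times did not overlap. The Lys spike (1.44 at 24 h and 1.23 at 72 h, group means), the Thr spike (1.67 and 1.40) and Actb (0.277 and 0.163) were also apart, whereas the Phe spike (1.47 and 1.46) and Gapdh (-0.04 and -0.07) overlapped. The array median was 5.33 to 5.34 at 24 h and 5.39 to 5.42 at 72 h, and the interquartile range 4.24 to 4.26 and 4.06 to 4.07. With 3 arrays against 3 the smallest two-sided exact permutation p is 0.1. Over both treatments, 6 arrays against 6, the exact permutation test gave p = 0.00216 for each of these measures that was apart (adjusted p = 0.0037 over 12 measures). The DMSO arrays split in the same way between the times. Any batch of harvest or labelling and the time under drug cannot be told apart within the MEKi arrays. Only the comparison of the MEKi time change with the DMSO time change sets arrays of the same time against each other. The labels did not say whether arrays of the same time shared a batch.

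**Figure D1:**
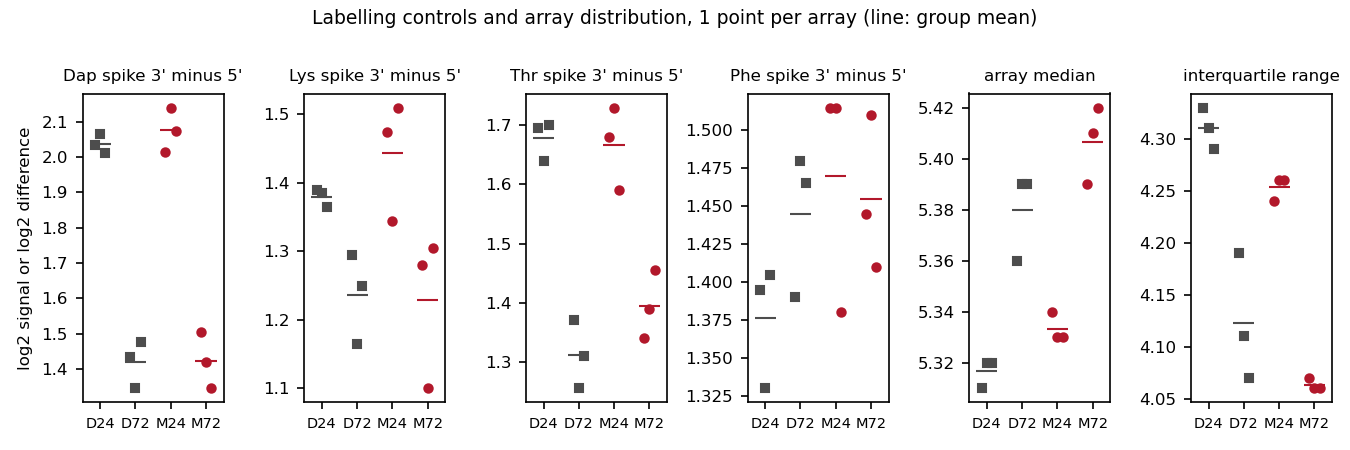
Labelling controls and the distribution of log2 signals on each of the 12 arrays. The panels show, from the left, the 3' minus 5' log2 signal of the Dap, Lys, Thr and Phe spikes, the array median and the interquartile range. Points are single arrays in the order of the replicate numbers, lines are group means, D is DMSO, M is MEKi and the number is the time in hours. The Dap, Lys and Thr spikes, the median and the interquartile range separate 72 h from 24 h in both treatments, and the Phe spike does not.

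The arrays within a time correlated at 0.9968 to 0.9983 over all probe sets, and arrays of different times at 0.9894 to 0.9921. The mean signal of 8 melanoma markers was 13.56 to 13.60 at 24 h and 13.40 to 13.54 at 72 h, and each of the 8 lay between 12.22 (Sox10) and 14.35 (Dct), with Sox10 and Slc45a2 called lower. The mean of 7 immune cell markers was 4.73 to 4.76 at 24 h and 4.87 to 4.90 at 72 h, with Cd3e and Csf1r called higher and Ptprc, the pan-leukocyte marker, at 3.14. The 7 fibroblast markers averaged 4.38 to 4.45 and 4.38 to 4.65, with none called. The 5 endothelial markers averaged 4.47 to 4.73 and 4.48 to 4.56, with Vwf called lower, and the 5 epithelial markers 4.75 to 4.88 and 4.76 to 5.11, with Krt8 called higher. A longer list of 10 fibroblast genes held 1 called lower, Col1a2 (7.24 to 7.51 at 24 h and 5.47 to 5.83 at 72 h). The deposited values carry no detection calls, so a signal under 5.36, the median probe set mean, was not shown to be above background. A MEKi group mean lay under it at both times for Etv5, Spry4, Vldlr, Vwf and Ptprc. It lay under it at a single time for Spred3, Slc7a11, Tgfb1, Col14a1, Egr1, Emp1, Pfkfb3, Isg20, Id1, Gja1, Mmp11, Chn2, Mex3b, Pmp2 and Krt8. Log2 differences that rest on such a mean are measured against a level that may be a floor. In a bulk culture fewer cells in a state and less RNA per cell cannot be told apart. A few arrays stood apart in single gene groups. With MEKi, replicate 3 at 24 h stood out in ERK genes. Replicate 3 at 72 h did so in early response and amino acid stress genes, and replicate 2 at 72 h in Bnip3 and Mitf. With DMSO, replicate 3 at 72 h was low in Srxn1, Cxcl10 and Mvd. These are examples, and the values are given with those genes.

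Between 24 and 72 h with MEKi, 5095 probe sets rose and 6250 fell out of 45037, which is 25.2% of them, and 44.9% of those called were higher. With each array centred on its own median the split was 3128 higher and 8174 lower, or 27.7% higher, so the balance of directions depended on the scaling. Of the 18193 genes with a probe set of their own, 2460 rose (13.5%) and 2909 fell (16%). The median change over all genes was 0.04, and 160 genes rose and 175 fell by at least 2-fold, 17 and 12 of them by at least 4-fold. In 8670 genes (47.7%) the 3 arrays at 72 h did not overlap the 3 at 24 h. With DMSO, 2581 genes rose (14.2%) and 3080 fell (16.9%). Of the genes that rose with MEKi, 52.4% also rose with DMSO, and of the genes that rose with DMSO, 50.0% also rose with MEKi. For falling genes these shares were 69.1% and 65.2%. The time change itself differed between the treatments, by a contrast over all 12 arrays, in 358 genes in which it was higher with MEKi (1.97%) and in 382 in which it was lower (2.1%). For most genes that changed with MEKi the difference from DMSO was not called, which does not show that the time changes were equal. List counts below are to be read beside these shares of all genes. With MEKi they are 13.5% higher and 16% lower, and for the difference 1.97% and 2.1%.

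**Figure D2:**
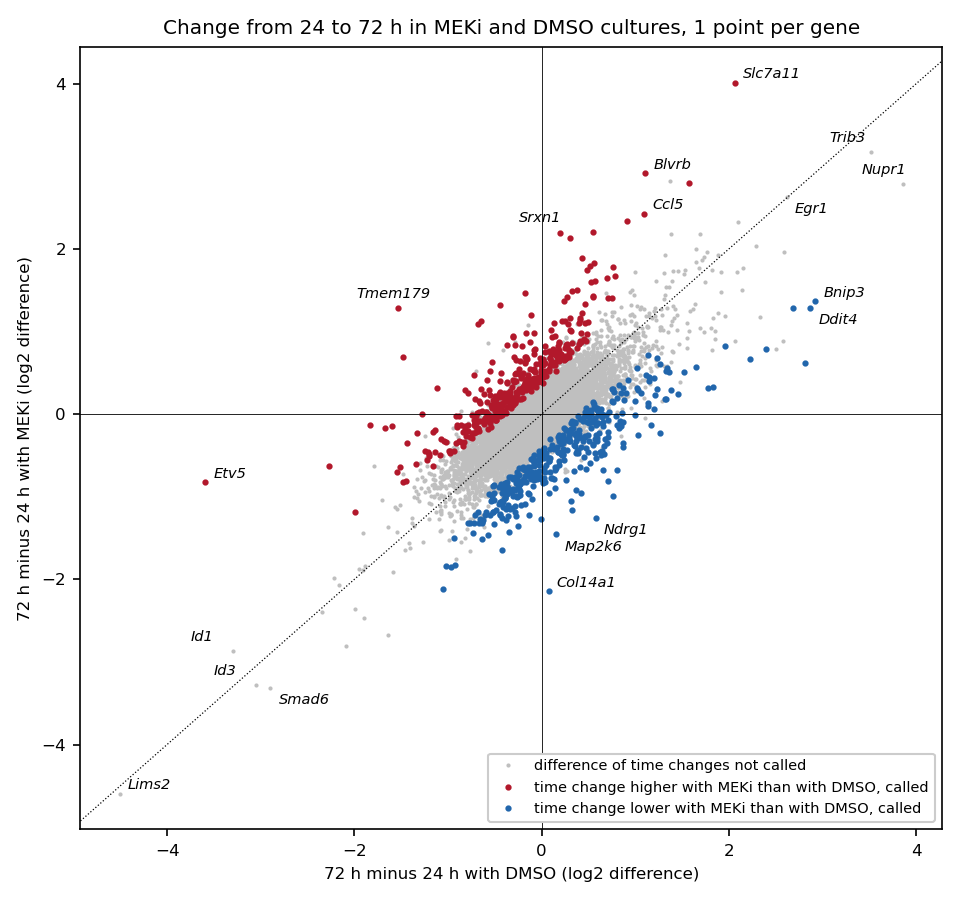
The log2 difference between 72 h and 24 h for 18193 genes, with MEKi on the vertical axis and with DMSO on the horizontal axis. Each point is a gene, red and blue mark the 358 and 382 genes in which the time change was called higher or lower with MEKi than with DMSO, and the dotted line marks equal changes. Lims2 (-4.59 with MEKi) and Trib3 (3.17) lie near the line, Slc7a11 (4.01) and Tmem179 (1.28) lie above it, and Ndrg1 (-1.25) and Col14a1 (-2.15) lie below it.

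The genes of mitosis fell as a group. All 42 measured members of the mitosis and G2/M list were lower at 72 h with MEKi, against 16% of all genes, with a median of -0.87. With DMSO 32 of the 42 fell and 1 rose, with a median of -0.38, and the fall was larger with MEKi in 28, against 2.1% of all genes. Leaving out 1 array gave 18 to 31 such genes, the lowest without DMSO 24 h replicate 3. Ttk, the kinase MPS1 of the spindle checkpoint, was 8.68, 8.66 and 8.78 at 24 h and 7.45, 7.31 and 7.45 at 72 h with MEKi. The groups did not overlap, the change was -1.30 ± 0.08 (adjusted p = 1.27e-05), and its difference from the DMSO change was -0.66 ± 0.11 (adjusted p = 0.00728). Cdc25b, the phosphatase that activates CDK1 at mitotic entry, was 8.93, 8.98 and 9.10 at 24 h and 7.76, 7.81 and 7.88 at 72 h. It fell by 1.19 ± 0.08 (adjusted p = 2e-05), against -0.59 with DMSO, and the difference of the time changes was -0.59 ± 0.10 (adjusted p = 0.00561). Top2a, the topoisomerase that untangles chromosomes, was 11.90, 11.97 and 12.07 at 24 h and 11.14, 11.12 and 11.21 at 72 h, a change of -0.82 ± 0.08 (adjusted p = 8.81e-05). With DMSO it was 12.19 ± 0.01 at 24 h and 11.96 ± 0.05 at 72 h (mean ± SD, n = 3), so the MEKi arrays at 24 h overlapped the DMSO arrays at 72 h and the MEKi arrays at 72 h lay below all others. The difference of the time changes was -0.60 ± 0.09 (adjusted p = 0.00529). Cenpe, the kinetochore motor, changed by -1.27 ± 0.08 (difference -0.61 ± 0.12, adjusted p = 0.013) and Ccnf, the cyclin F that serves a ubiquitin ligase, by -1.30 ± 0.09. Mki67, the proliferation antigen, changed by -0.87 ± 0.08 with MEKi and -0.37 with DMSO, a difference of -0.51 ± 0.10 (adjusted p = 0.0166), which was not called without DMSO 24 h replicate 3 (0.0519) or MEKi 24 h replicate 2 (0.0523). The mean over the probe sets of a gene was smaller for Ttk (-0.54 over 2) and Top2a (-0.52 over 3), and the difference from DMSO was then not called for either (-0.20 and -0.28, adjusted p = 0.297 and 0.11).

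A motif that many mitotic promoters share is the CHR element, read by the MuvB complex together with B-MYB and FOXM1. Its core letters TTTGAA were searched on both strands in the 300 bases from 250 before to 50 after each RefSeq start site (build GRCm38.p6, 1 window per gene). They stood in 77.1% of the 35 mitosis genes with a window and in 13.3% of all 14452 measured genes with one. A match describes the letters only. The windows of 3 fallen genes are shown because they carry it, with the match in capitals, 5′ to 3′ on the gene's strand. They are Ttk (chr9:83834439-83834738, plus strand), Ccnf (chr17:24251360-24251659, minus strand) and Top2a (chr11:99024140-99024439, minus strand).
Ttk: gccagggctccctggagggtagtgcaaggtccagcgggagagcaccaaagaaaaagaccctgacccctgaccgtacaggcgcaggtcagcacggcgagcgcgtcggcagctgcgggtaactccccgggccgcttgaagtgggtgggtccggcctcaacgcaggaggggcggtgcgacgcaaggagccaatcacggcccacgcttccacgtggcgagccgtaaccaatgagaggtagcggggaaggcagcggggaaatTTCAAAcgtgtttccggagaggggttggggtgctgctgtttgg
Ccnf: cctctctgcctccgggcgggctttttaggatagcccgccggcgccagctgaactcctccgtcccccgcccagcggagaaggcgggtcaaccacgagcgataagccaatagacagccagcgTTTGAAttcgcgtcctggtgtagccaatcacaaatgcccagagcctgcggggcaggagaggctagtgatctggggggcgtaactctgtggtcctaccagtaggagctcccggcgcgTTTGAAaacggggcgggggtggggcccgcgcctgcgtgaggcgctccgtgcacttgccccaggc
Top2a: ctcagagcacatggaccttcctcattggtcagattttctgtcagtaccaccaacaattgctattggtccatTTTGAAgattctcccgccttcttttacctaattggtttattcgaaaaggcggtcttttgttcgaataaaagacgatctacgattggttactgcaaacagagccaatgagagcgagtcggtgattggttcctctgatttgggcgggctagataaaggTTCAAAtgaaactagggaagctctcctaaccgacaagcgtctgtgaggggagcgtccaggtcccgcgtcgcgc

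**Figure D3:**
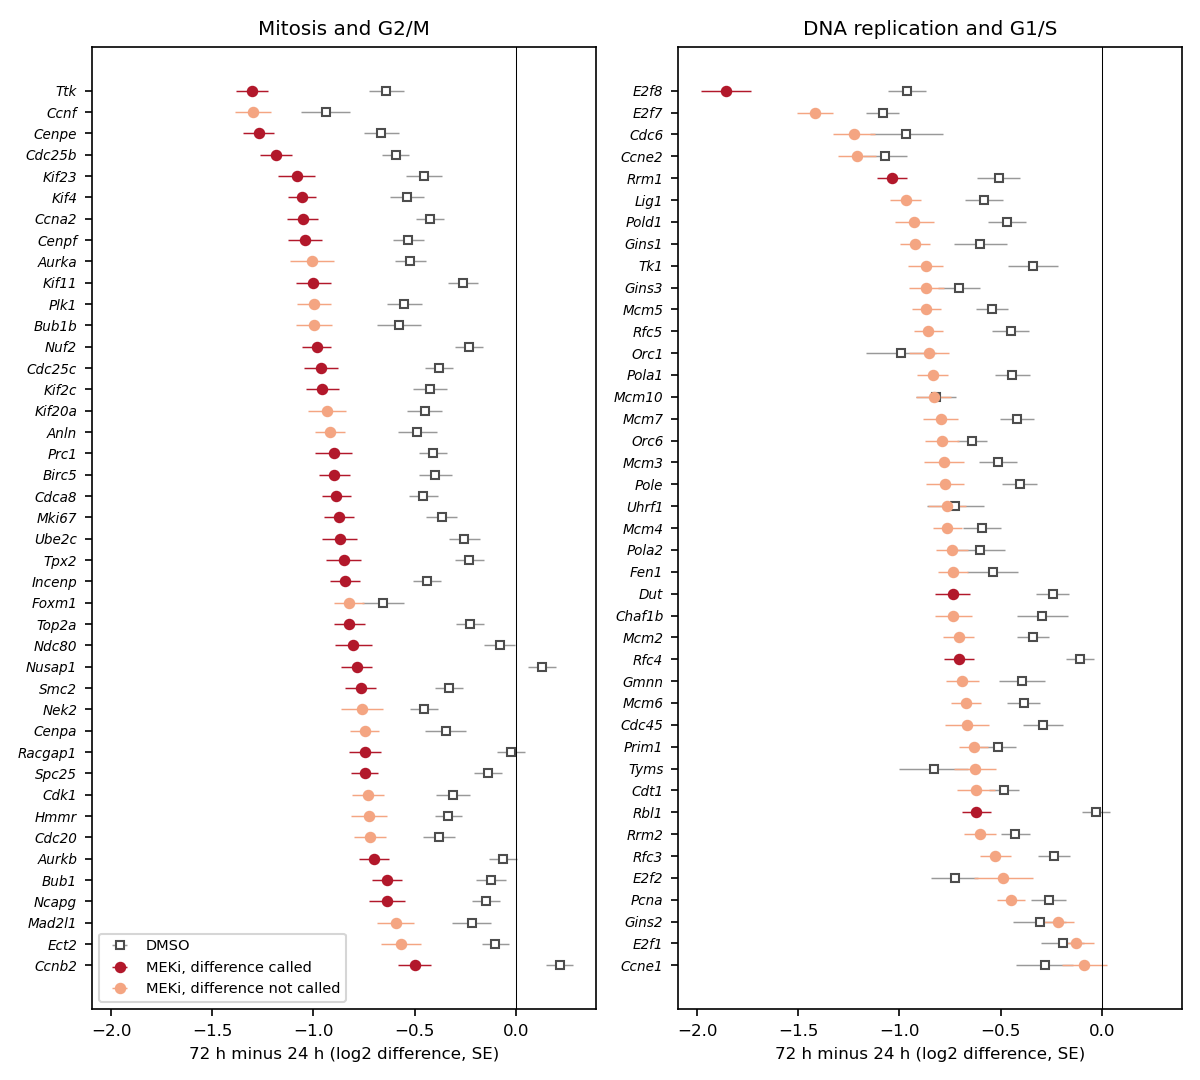
The log2 difference between 72 h and 24 h, with its standard error, for the measured genes of the mitosis list (left, 42 genes) and the DNA replication list (right, 41 genes). Open squares are DMSO, filled circles are MEKi, and dark red marks genes in which the time change differed between the treatments. All 42 mitosis genes lie below 0 with MEKi, and 28 of them are dark red, against 5 of the replication genes.

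Most genes of DNA replication and the G1/S transition fell in both treatments. Of 41 measured, 38 fell and none rose with MEKi (median -0.76), and 30 fell with DMSO (median -0.48). The fall was larger with MEKi in 5, against 2.1% of all genes. That count was 10 without DMSO 72 h replicate 3, 4 without MEKi 72 h replicate 1 and 3 without any other single array. All 12 origin licensing genes fell with either treatment. E2f8, a repressive E2F factor, was 10.29, 10.33 and 10.11 at 24 h and 8.63, 8.12 and 8.41 at 72 h, with no overlap and a difference of -1.86 ± 0.12 (adjusted p = 2.13e-05). It fell further than with DMSO (-0.96, difference -0.89 ± 0.17, adjusted p = 0.0122). Its relative E2f7 changed by -1.42 ± 0.09, Cdc6, which loads the helicase at origins, by -1.22 ± 0.10, and Ccne2, the cyclin E2, by -1.21 ± 0.09. For these 3 genes the difference from DMSO was not called. Pcna, the sliding clamp of the polymerase, changed by -0.45 ± 0.07. The E2F letters TTTCCCGC stood in 20.0% of 35 replication windows and in 1.7% of all windows.

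The CDK inhibitors and p53 targets went in both directions. Of 26 measured, 7 rose and 7 fell, against 13.5% and 16% of all genes, with a median of 0.00. Gadd45a, a stress-induced growth arrest gene, was 6.95, 6.76 and 6.65 at 24 h and 8.92, 9.25 and 8.74 at 72 h, a rise of 2.18 ± 0.13 (adjusted p = 1.27e-05), with 1.69 in DMSO. Cdkn1b, the CDK inhibitor p27, rose by 0.61 ± 0.11 (0.38 over 2 probe sets), and Cdkn1a, the inhibitor p21, was not called (-0.29 ± 0.16, adjusted p = 0.221). Of 20 targets of p53 6 rose and 6 fell. Zmat3, an RNA-binding protein, was 10.18, 10.30 and 10.43 at 24 h and 9.04, 9.06 and 8.83 at 72 h, a change of -1.33 ± 0.10 against -0.51 with DMSO (difference -0.81 ± 0.13, adjusted p = 0.00609). Phlda3, an inhibitor of AKT, fell by 1.00 ± 0.08, against -0.27 with DMSO (difference -0.73 ± 0.10, adjusted p = 0.00215).

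The readouts of ERK activity went in both directions. Of 26 measured genes of this list 7 rose and 8 fell with MEKi, against 3 and 12 with DMSO. The time change was higher with MEKi in 4 and lower in none, against 1.97% and 2.1% of all genes. Without MEKi 72 h replicate 3 it was lower in 2. Those 4 included both measured ETS factors of the PEA3 group, to which Etv5 belongs. Etv5, an ETS factor that ERK induces, was 4.35, 4.22 and 6.08 at 24 h and 4.06, 3.93 and 4.18 at 72 h with MEKi and 8.86, 8.98 and 8.99 at 24 h and 5.59, 5.33 and 5.12 at 72 h with DMSO. With MEKi replicate 3 at 24 h lay above the other arrays, the remaining 5 were between 3.93 and 4.35, and the change of -0.83 ± 0.40 was not called (adjusted p = 0.16; -0.31 over 3 probe sets). With DMSO the gene fell by 3.60, and the difference of the time changes was 2.77 ± 0.48 (adjusted p = 0.00852). Since 5 of the 6 MEKi arrays were under the median probe set mean, a further fall may not have registered, and the size of that difference is open to this limit. Spry4, a Sprouty inhibitor of the pathway, was 3.75, 3.89 and 4.17 at 24 h and 3.52, 3.87 and 3.91 at 72 h with MEKi, with the times overlapping (-0.17 ± 0.13, adjusted p = 0.383). It fell by 1.67 with DMSO, a difference of 1.50 ± 0.22 (adjusted p = 0.00351; 0.50 over 4 probe sets). All 6 MEKi arrays were under the median probe set mean, so the same limit applies. Dusp6, the ERK phosphatase, was 9.95, 9.88 and 10.58 at 24 h and 9.85, 9.51 and 9.82 at 72 h, again with replicate 3 at 24 h the highest, and was not called (-0.41 ± 0.17, adjusted p = 0.116). Spred3, a Spred family inhibitor of the pathway, rose by 1.13 ± 0.09, against 0.25 with DMSO (difference 0.88 ± 0.14, adjusted p = 0.00503), whereas Spry1 fell by 0.96 ± 0.08 with MEKi and fell by 0.77 with DMSO.

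Of 11 early response genes 5 rose at 72 h with MEKi, 6 were not called and none fell, against 13.5% of all genes called higher. Egr1, a zinc finger factor, was 4.66, 5.01 and 4.69 at 24 h and 5.91, 6.47 and 9.87 at 72 h. All 3 arrays at 72 h lay above those at 24 h, but replicate 3 at 72 h was far above the other 2. The difference was 2.63 ± 0.81 (adjusted p = 0.039), and without that array it was 1.40 (adjusted p = 0.000762). Without any of the arrays at 24 h the call was lost (adjusted p = 0.0739 to 0.104), as it was with a trended and robust variance prior (0.205). DMSO gave 2.62. Fos, its partner in the early response, was 7.26, 7.23 and 7.85 at 24 h and 7.65, 8.06 and 9.42 at 72 h and was not called (0.93 ± 0.38, adjusted p = 0.101). It was called without MEKi 72 h replicate 1 (1.29, adjusted p = 0.0354). Ier3, an early response gene linked to survival, was 9.73, 9.86 and 9.70 at 24 h and 11.51, 11.63 and 11.38 at 72 h, a rise of 1.74 ± 0.09 (adjusted p = 6.57e-06), with 1.53 in DMSO. Ier2 rose by 0.76 ± 0.17.

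Of 4 growth targets of ERK 3 fell and 1 rose, which was Phlda1 (0.36 ± 0.08). Myc, a transcription factor that drives growth, was 9.47, 9.57 and 10.05 at 24 h and 7.77, 7.98 and 8.85 at 72 h, with replicate 3 the highest at each time and no overlap (-1.50 ± 0.25, adjusted p = 0.00215; -0.82 with DMSO). Ccnd1, the cyclin D1 that starts the cell cycle, was 10.69, 10.46 and 11.05 at 24 h and 9.82, 10.03 and 9.72 at 72 h, a change of -0.88 ± 0.14 (adjusted p = 0.00178; -1.36 with DMSO). Emp1, a membrane protein, was 5.75, 7.33 and 6.57 at 24 h and 5.02, 5.55 and 4.43 at 72 h. Its arrays spread over more than a log2 unit at either time, and it fell by 1.55 ± 0.37 (adjusted p = 0.0128; -0.71 over 2 probe sets, and adjusted p = 0.0857 with a trended and robust prior). The difference from DMSO was not called for any of these 3 genes.

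**Figure D4:**
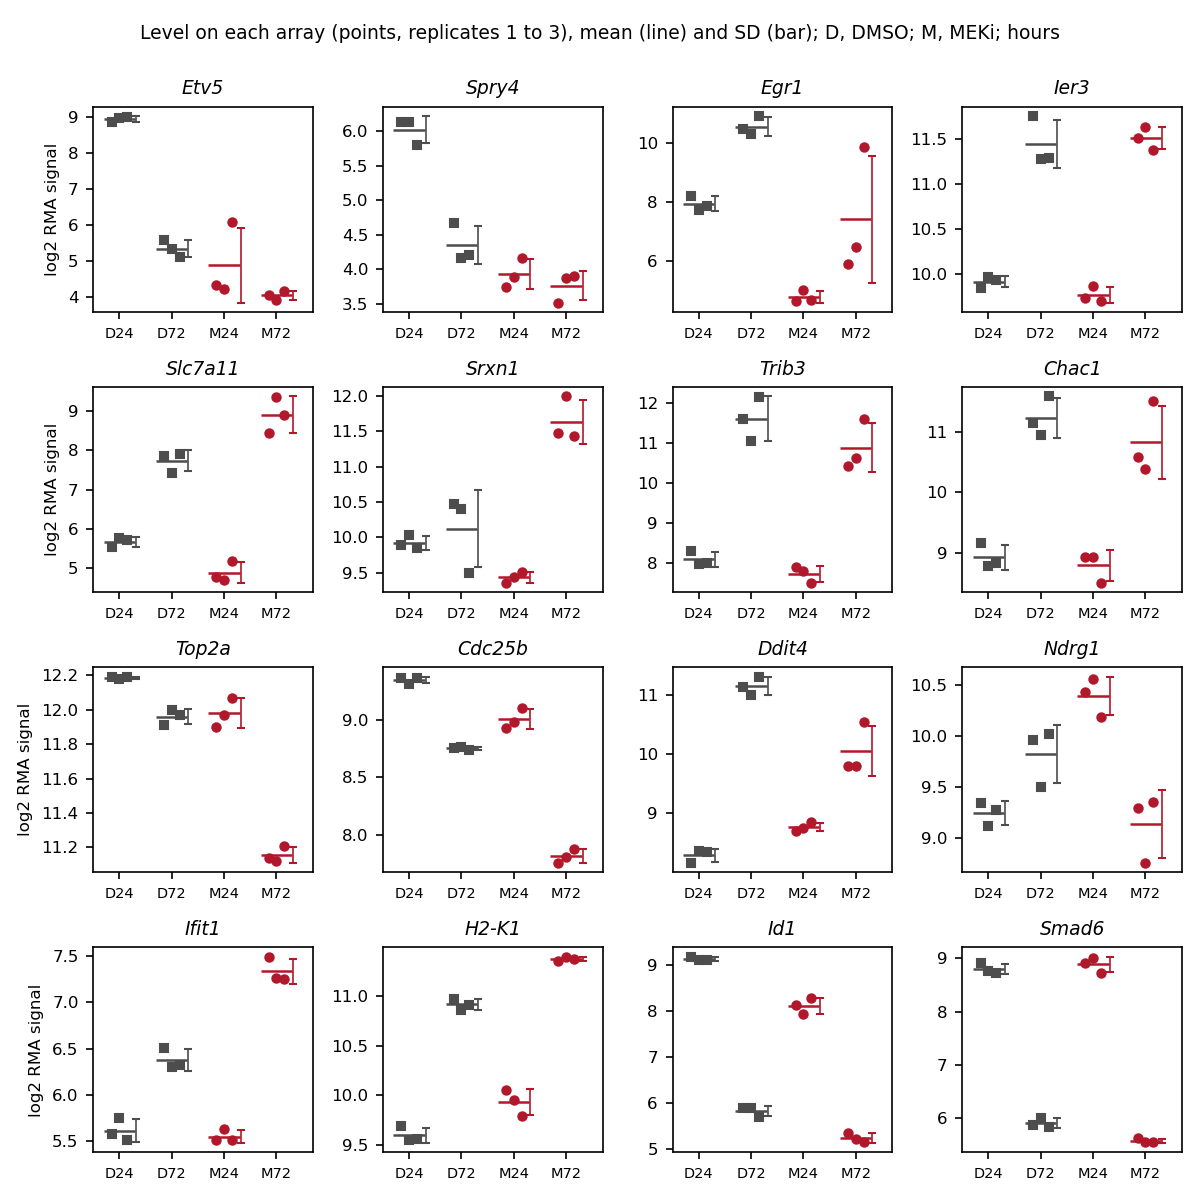
Log2 RMA signal of 16 genes on each array, each panel on its own scale. Points are arrays in the order of the replicate numbers, lines are group means and bars are SDs of 3 arrays, with D for DMSO, M for MEKi and the time in hours. Etv5 and Spry4 fall from 24 to 72 h with DMSO and start low with MEKi, Slc7a11 and Srxn1 end highest with MEKi at 72 h, and Ndrg1 rises with DMSO (0.58) and falls with MEKi (-1.25).

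Most amino acid stress genes rose. These are targets of ATF4, a factor made when amino acids run short, and 26 of 33 measured rose and none fell, against 13.5% of all genes, with a median of 0.76. With DMSO 27 rose (median 0.92), and the time changes differed in 2 genes. All 11 stress factors of the list rose with either treatment. Slc7a11, the cystine importer, was 4.78, 4.70 and 5.19 at 24 h and 8.43, 9.37 and 8.91 at 72 h, the highest rise of any gene named here, 4.01 ± 0.21 (adjusted p = 7.62e-06). Its level at 24 h was under the median probe set mean. With DMSO it rose by 2.06, and the difference was 1.95 ± 0.28 (adjusted p = 0.00362). Trib3, a pseudokinase that restrains the ATF4 response, was 7.89, 7.79 and 7.50 at 24 h and 10.44, 10.64 and 11.60 at 72 h. Replicate 3 was the highest at 72 h and no arrays overlapped (3.17 ± 0.25, adjusted p = 4.02e-05; 3.52 with DMSO). Chac1, which degrades glutathione, was 8.94, 8.94 and 8.51 at 24 h and 10.59, 10.38 and 11.51 at 72 h, a rise of 2.03 ± 0.25 (adjusted p = 0.000391). Atf5, a factor downstream of ATF4, rose by 2.32 ± 0.11 and Ddit3, the stress factor CHOP, by 1.50 ± 0.18. Asns, asparagine synthetase, rose by 0.82 ± 0.08, Sesn2, an inhibitor of mTORC1, by 1.27 ± 0.19, and Nupr1, a stress-induced chromatin protein, by 2.78 ± 0.20. Vldlr, a lipoprotein receptor that ATF4 induces, rose by 0.67 ± 0.10 (0.32 over 6 probe sets) and by 2.22 with DMSO. The difference was -1.55 ± 0.30 (adjusted p = 0.015), and it was not called as the mean over its probe sets (-0.73, adjusted p = 0.0921).

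The composite site that ATF4 binds with CEBP factors was searched as TGATGNAAN on both strands of the same 300-base windows. It stood in 32.1% of 28 amino acid stress genes with a window and in 2.74% of all 14452. The windows of 4 genes that rose and carry it are shown, with the match in capitals, namely Slc7a11 (chr3:50443564-50443863, minus strand), Trib3 (chr2:152344011-152344310, minus strand), Chac1 (chr2:119350992-119351291, plus strand) and Asns (chr6:7693160-7693459, minus strand). Slc7a11 held 2 matches.
Slc7a11: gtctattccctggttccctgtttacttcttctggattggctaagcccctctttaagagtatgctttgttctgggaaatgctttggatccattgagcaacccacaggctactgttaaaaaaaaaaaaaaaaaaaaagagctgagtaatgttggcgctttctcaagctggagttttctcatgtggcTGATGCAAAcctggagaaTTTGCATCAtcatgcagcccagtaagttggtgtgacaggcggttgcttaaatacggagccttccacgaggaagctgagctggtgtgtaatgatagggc
Trib3: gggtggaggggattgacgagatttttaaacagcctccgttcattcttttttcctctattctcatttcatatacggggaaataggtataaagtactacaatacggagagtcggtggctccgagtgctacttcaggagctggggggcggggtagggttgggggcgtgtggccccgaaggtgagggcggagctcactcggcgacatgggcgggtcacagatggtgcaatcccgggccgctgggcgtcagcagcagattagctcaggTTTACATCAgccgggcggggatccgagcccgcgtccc
Chac1: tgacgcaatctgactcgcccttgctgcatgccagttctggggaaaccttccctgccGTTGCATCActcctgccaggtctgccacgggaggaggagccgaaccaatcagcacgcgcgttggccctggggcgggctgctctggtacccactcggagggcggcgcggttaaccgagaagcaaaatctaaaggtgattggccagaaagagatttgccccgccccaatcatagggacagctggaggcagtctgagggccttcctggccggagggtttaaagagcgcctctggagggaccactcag
Asns: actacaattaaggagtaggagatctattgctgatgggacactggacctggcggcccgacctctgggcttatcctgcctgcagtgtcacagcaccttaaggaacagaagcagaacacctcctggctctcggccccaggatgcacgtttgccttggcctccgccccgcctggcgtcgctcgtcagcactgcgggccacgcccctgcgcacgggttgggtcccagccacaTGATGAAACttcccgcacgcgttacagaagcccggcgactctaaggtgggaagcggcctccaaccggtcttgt

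Most genes of the NRF2 response, which supply glutathione and detoxify oxidants, rose with MEKi, several of them by more than with DMSO. Of 20 measured 13 rose and none fell (median 0.62), whereas with DMSO 6 rose and 2 fell (median 0.01). Slc7a11 is a member of this list as well as of the amino acid stress list, so it counts in both. The time change was higher with MEKi in 8 of the 20, against 1.97% of all genes, and lower in 1 (Gsta2, difference -1.29 ± 0.23, adjusted p = 0.0104), and leaving out 1 array gave 6 to 9 higher. Srxn1, sulfiredoxin, was 9.36, 9.44 and 9.52 at 24 h and 11.48, 11.99 and 11.43 at 72 h with MEKi and 9.89, 10.04 and 9.85 at 24 h and 10.47, 10.40 and 9.50 at 72 h with DMSO. The MEKi arrays at 72 h lay above all others, with a rise of 2.19 ± 0.14 (adjusted p = 1.58e-05) and a difference of 2.00 ± 0.29 (adjusted p = 0.00382). Blvrb, biliverdin reductase B of heme breakdown, was 8.68, 8.92 and 9.20 at 24 h and 11.83, 11.87 and 11.86 at 72 h, a rise of 2.92 ± 0.12 against 1.11 with DMSO (difference 1.81 ± 0.22, adjusted p = 0.00132). It is not a member of the list. Hmox1, heme oxygenase 1, was 9.05, 9.23 and 8.96 at 24 h and 10.99, 11.84 and 10.96 at 72 h, a rise of 2.18 ± 0.20, with 1.38 in DMSO and no call for the difference. Gsta4, a glutathione transferase, rose by 1.84 ± 0.10. Among the other members with a higher time change were Gclm (difference 1.65 ± 0.26, adjusted p = 0.00525), the modifier of glutathione synthesis, Gsr (1.00 ± 0.19, adjusted p = 0.0121), glutathione reductase, and Taldo1 (1.07 ± 0.14, adjusted p = 0.00189) and Pgd (0.87 ± 0.17, adjusted p = 0.0154) of the pentose phosphate pathway. Sqstm1, the autophagy receptor p62 that frees NRF2 from KEAP1, was 12.29, 12.33 and 12.45 at 24 h and 13.36, 13.65 and 13.56 at 72 h, a rise of 1.17 ± 0.09 against 0.31 with DMSO (difference 0.86 ± 0.11, adjusted p = 0.00215; 0.56 over 2 probe sets). The antioxidant element TGACNNNGC stood in 18.8% of 16 windows of the list and in 14.2% of all windows.

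Several hypoxia genes rose less with MEKi than with DMSO. Outside glycolysis 7 of 23 measured HIF targets rose and 2 fell (median 0.16), against 17 and none with DMSO (median 0.72). The time change was lower with MEKi in 5, against 2.1% of all genes, and in none was it higher. Without DMSO 72 h replicate 2 it was lower in 12, and without MEKi 72 h replicate 3 in 10. It was lower in 3 without any of DMSO 24 h replicates 1 to 3, DMSO 72 h replicates 1 and 3 or MEKi 24 h replicates 1 and 2, and in 10 with the replicate block. Ndrg1, a stress-response gene induced by HIF, was 10.43, 10.56 and 10.19 at 24 h and 9.30, 8.76 and 9.36 at 72 h with MEKi and 9.35, 9.12 and 9.28 at 24 h and 9.96, 9.50 and 10.02 at 72 h with DMSO. It fell by 1.25 ± 0.16 (adjusted p = 0.000413) while it rose with DMSO (0.58), and the difference was -1.83 ± 0.23 (adjusted p = 0.00189). Ddit4, an inhibitor of mTORC1 also known as REDD1, was 8.71, 8.75 and 8.85 at 24 h and 9.81, 9.81 and 10.55 at 72 h, a rise of 1.29 ± 0.18 against 2.87 with DMSO (difference -1.58 ± 0.23, adjusted p = 0.00339). Bnip3, a mitophagy receptor, was 10.54, 10.62 and 10.33 at 24 h and 12.05, 11.12 and 12.43 at 72 h, with replicate 2 the lowest at 72 h. It rose by 1.37 ± 0.27 (adjusted p = 0.0047, and 0.0603 with a trended and robust prior) against 2.92 with DMSO. The difference was -1.55 ± 0.34 (adjusted p = 0.025), which was not called without any DMSO array at 24 h, DMSO 72 h replicate 1 or 3, or MEKi 24 h replicate 1 or 2 (adjusted p = 0.052 to 0.0685), or with the trended and robust prior (0.0802). Bhlhe40, a repressor of clock and stress genes, was 10.62 ± 0.01 at 24 h and 9.80 ± 0.23 at 72 h (mean ± SD, n = 3), a change of -0.82 ± 0.11, with 0.04 in DMSO (difference -0.86 ± 0.15, adjusted p = 0.00763). Vegfa, the angiogenic factor, rose by 1.10 ± 0.10. Car9, a carbonic anhydrase used as a hypoxia marker, was not called (0.15 ± 0.19, adjusted p = 0.61). Its time change with DMSO was 0.66, and the contrast of the 2 is not given here. The HIF core letters ACGTG stood in 61.1% of 18 windows of the list and in 23.2% of all windows.

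In glycolysis 6 of 23 measured genes rose and 1 fell (median 0.17), against 16 and 3 with DMSO (median 0.43). The time change was lower with MEKi in 5 and higher in 1, against 2.1% and 1.97% of all genes. It was lower in 8 without DMSO 72 h replicate 2 or without MEKi 72 h replicate 3. It was lower in 3 without any of DMSO 24 h replicate 3, DMSO 72 h replicates 1 and 3 or MEKi 24 h replicates 1 and 2, and in 9 with the replicate block. Eno2, the enolase of neurons and neuroendocrine cells, was the member that was higher. It was 6.45, 6.06 and 6.26 at 24 h and 8.09, 8.33 and 8.01 at 72 h, a rise of 1.89 ± 0.12 (adjusted p = 1.52e-05) against 0.43 with DMSO, and the difference was 1.46 ± 0.19 (adjusted p = 0.00189). Aldoc, an aldolase, was 9.15, 9.36 and 8.78 at 24 h and 10.56, 9.91 and 10.69 at 72 h, a rise of 1.29 ± 0.20 (0.76 over 2 probe sets) against 2.68 with DMSO (difference -1.39 ± 0.27, adjusted p = 0.0146). The other members with a lower time change were the lactate exporter Slc16a3 (difference -1.21 ± 0.18, adjusted p = 0.00423), the hexokinase Hk2 (-1.05 ± 0.20, adjusted p = 0.014), Pdk1 (-1.61 ± 0.34, adjusted p = 0.0212), a brake on pyruvate oxidation, and the pyruvate kinase Pkm (-0.40 ± 0.10, adjusted p = 0.0475). The Pdk1 call was lost without DMSO 24 h replicate 3, DMSO 72 h replicate 1 or 3 or MEKi 24 h replicate 1 or 2 (adjusted p = 0.0514 to 0.0619), and with a trended and robust prior (0.0638). The Pkm call was kept only without DMSO 72 h replicate 2 or MEKi 72 h replicate 3 among single arrays left out (otherwise 0.0803 to 0.129), and was lost after quantile normalization again (0.0802). Txnip, a brake on glucose uptake, rose by 1.05 ± 0.15, and Pfkfb3, which drives glycolysis, fell by 0.81 ± 0.12 (-0.34 over 2 probe sets).

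Most interferon-stimulated genes rose. Of 39 measured 23 rose and none fell (median 0.39), and with DMSO 24 rose and 1 fell (median 0.33). The time change was higher with MEKi in 3, against 1.97% of all genes. They were Ifit1, Ifit3 (difference 0.70 ± 0.15, adjusted p = 0.0206) and Trim25 (0.82 ± 0.19, adjusted p = 0.0329). Leaving out 1 array gave 1 to 5 higher and at most 1 lower. It was higher in 5 without DMSO 72 h replicate 2, and in 1 without DMSO 24 h replicate 2 or MEKi 24 h replicate 1. The Ifit3 call was lost without DMSO 24 h replicate 2 or MEKi 24 h replicate 1 (adjusted p = 0.0574 and 0.0518). The Trim25 call was lost without any DMSO 24 h array, MEKi 24 h replicate 1 or 2 or MEKi 72 h replicate 1 or 2 (0.0515 to 0.0889). Ifit1, an antiviral protein that binds foreign RNA, was 5.51, 5.63 and 5.51 at 24 h and 7.49, 7.26 and 7.25 at 72 h with MEKi and 5.58, 5.75 and 5.51 at 24 h and 6.51, 6.30 and 6.32 at 72 h with DMSO. It rose by 1.78 ± 0.09 (adjusted p = 6.37e-06), and the difference was 1.02 ± 0.13 (adjusted p = 0.00189). Ifitm3, which blocks virus entry, was 8.16, 7.82 and 8.14 at 24 h and 10.30, 9.64 and 10.18 at 72 h, a rise of 2.00 ± 0.16 (1.64 with DMSO). Rsad2, the antiviral enzyme viperin, was 9.09, 9.16 and 8.86 at 24 h and 10.75, 10.80 and 10.66 at 72 h, a rise of 1.70 ± 0.09, and Isg20, an exonuclease, rose by 1.72 ± 0.11. Of 29 interferon and JAK/STAT signaling genes 11 rose, or 7 without any 1 of the MEKi 24 h arrays or MEKi 72 h replicate 3. For these genes DMSO gave 9 higher. Those that rose with MEKi included the RNA sensors Ddx58 (1.23 ± 0.16; 0.72 over 3 probe sets) and Ifih1 (1.01 ± 0.11) and Irf9, the DNA-binding part of the interferon complex (0.73 ± 0.11). Immune cell markers averaged 4.73 to 4.76 at 24 h and 4.87 to 4.90 at 72 h with Ptprc at 3.14, as given above, and their part in these results was not tested.

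The core of the interferon response element, GAAA, any 2 bases, then GAAA, was searched on both strands of the 300-base windows. It stood in 56.7% of the 30 interferon-stimulated genes with a window and in 3.02% of all 14452. Windows of 3 genes that rose with both treatments are shown with the match in capitals, namely Ifit1 (chr19:34640639-34640938, plus strand), Ifitm3 (chr7:141010695-141010994, minus strand) and Rsad2 (chr12:26456403-26456702, minus strand). Ifit1 and Ifitm3 held 2 matches each.
Ifit1: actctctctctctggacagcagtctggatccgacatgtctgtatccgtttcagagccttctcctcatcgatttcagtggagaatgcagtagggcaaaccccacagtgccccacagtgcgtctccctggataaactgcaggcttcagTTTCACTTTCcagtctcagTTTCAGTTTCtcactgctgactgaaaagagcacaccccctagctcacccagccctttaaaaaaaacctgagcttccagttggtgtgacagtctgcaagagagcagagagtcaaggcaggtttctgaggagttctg
Ifitm3: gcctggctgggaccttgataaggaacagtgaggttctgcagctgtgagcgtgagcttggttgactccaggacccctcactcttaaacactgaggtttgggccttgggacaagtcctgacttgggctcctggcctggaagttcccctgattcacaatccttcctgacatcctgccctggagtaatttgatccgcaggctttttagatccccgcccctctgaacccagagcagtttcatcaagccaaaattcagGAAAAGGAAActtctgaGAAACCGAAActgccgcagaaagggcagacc
Rsad2: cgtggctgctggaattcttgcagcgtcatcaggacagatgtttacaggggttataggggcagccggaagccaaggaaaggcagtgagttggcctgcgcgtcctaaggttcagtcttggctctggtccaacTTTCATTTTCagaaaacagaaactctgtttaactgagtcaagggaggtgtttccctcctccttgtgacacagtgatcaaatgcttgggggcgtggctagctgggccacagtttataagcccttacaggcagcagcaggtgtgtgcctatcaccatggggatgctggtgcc

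Genes of MHC class I presentation rose in 9 of 16 measured, 1 fell, and no time change differed from DMSO. H2-K1, a class I heavy chain, was 10.05, 9.95 and 9.79 at 24 h and 11.35, 11.39 and 11.37 at 72 h, with no overlap and a rise of 1.44 ± 0.08 (adjusted p = 1.16e-05; 1.31 with DMSO). H2-D1 rose by 1.40 ± 0.09 (0.69 over 9 probe sets). The heavy chains are near-identical, so a probe set may read more than 1 of them. B2m, the light chain, was 12.01, 12.02 and 11.86 at 24 h and 12.64, 12.56 and 12.52 at 72 h, a rise of 0.61 ± 0.08, and Tapbp, the peptide-loading factor tapasin, rose by 1.73 ± 0.14. The transporter gene Tap1 was not called (0.07 ± 0.08, adjusted p = 0.559), and Psmb10, an immunoproteasome subunit, fell by 0.53 ± 0.10. Among 23 checkpoint ligands and galectins 4 rose, near the 13.5% of all genes, or 2 without MEKi 24 h replicate 2 or MEKi 72 h replicate 2 and 2 with centred arrays. Among them was Cd274, the ligand PD-L1, at 5.67, 5.70 and 5.55 at 24 h and 6.15, 6.33 and 6.58 at 72 h, a rise of 0.71 ± 0.11 (adjusted p = 0.00128; 0.82 with DMSO). Of 8 MHC class II genes 1 rose, and none did on leaving out any 1 MEKi array.

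Of 33 chemokines and cytokines 5 rose, near the 13.5% of all genes called higher, and 1 fell, or none without MEKi 24 h replicate 3. In this list 2 had a higher time change with MEKi. Ccl5, which attracts T cells, was 5.95, 5.89 and 5.62 at 24 h and 8.34, 8.41 and 7.99 at 72 h with MEKi and 6.13, 6.13 and 5.94 at 24 h and 7.09, 7.23 and 7.15 at 72 h with DMSO. It rose by 2.43 ± 0.13 (adjusted p = 7.28e-06), with a difference of 1.34 ± 0.16 (adjusted p = 0.00136). Cxcl10, an interferon-induced ligand of CXCR3, was 8.34, 8.10 and 8.27 at 24 h and 9.39, 9.66 and 9.03 at 72 h with MEKi and 9.42, 9.35 and 9.32 at 24 h and 8.84, 9.03 and 8.27 at 72 h with DMSO. It rose by 1.12 ± 0.14 (adjusted p = 0.000462) while it fell by 0.65 with DMSO, and the difference was 1.77 ± 0.25 (adjusted p = 0.00288).

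Targets of BMP and TGF-beta signals were among the genes that fell most. Of 17 measured, 9 fell and 1 rose (median -0.24), and 8 fell with DMSO. Smad6, an inhibitor that BMP signals induce, was 8.92, 9.01 and 8.73 at 24 h and 5.62, 5.55 and 5.55 at 72 h, a fall to a narrow range with a difference of -3.31 ± 0.09 (adjusted p = 2.11e-07; -2.90 with DMSO). Id1, a dominant-negative partner of bHLH factors, was 8.13, 7.94 and 8.28 at 24 h and 5.36, 5.22 and 5.15 at 72 h, a change of -2.87 ± 0.10 (-3.30 with DMSO), and Id3 was 11.64, 11.45 and 11.66 at 24 h and 8.27, 7.98 and 8.66 at 72 h, a change of -3.28 ± 0.15 (-3.05 with DMSO). The difference from DMSO was not called for these 3 genes. Id2 fell by 1.83 ± 0.14 with MEKi and fell by 1.02 with DMSO. Pmepa1, a TGF-beta target that restrains the pathway, fell by 2.07 ± 0.15 (-1.01 over 3 probe sets). Tgfb1, the ligand, rose. It was 5.27, 5.37 and 5.39 at 24 h and 6.90, 6.54 and 6.58 at 72 h, a rise of 1.33 ± 0.10 against 0.46 with DMSO (difference 0.87 ± 0.14, adjusted p = 0.00643), and over its 2 probe sets the rise was 0.67 and the difference 0.37.

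Targets of YAP and TEAD, which read cell contact and tension, fell in 8 of 18 measured and rose in 1 (median 0.01). DMSO gave 10 lower and 1 higher (median -0.32). The time change was higher with MEKi in 3 and lower in none, against 1.97% and 2.1% of all genes. Ccn2, a matricellular growth factor, was 8.74, 8.69 and 8.76 at 24 h and 6.69, 6.15 and 6.26 at 72 h, a change of -2.36 ± 0.13 (adjusted p = 7.62e-06; -1.99 with DMSO). Lats2, a kinase that restrains YAP, fell by 0.69 ± 0.08, and Crim1, which binds BMPs, fell by 0.66 ± 0.08 (-0.36 over 2 probe sets). F3, tissue factor, rose by 0.40 ± 0.09 and fell by 0.29 with DMSO (difference 0.69 ± 0.12, adjusted p = 0.00873). Outside this list Lims2, an adaptor of integrin adhesions, showed the lowest change of all named genes. It was 10.93, 10.92 and 10.62 at 24 h and 6.42, 6.18 and 6.09 at 72 h with MEKi and 10.86, 10.83 and 10.73 at 24 h and 6.23, 6.11 and 6.56 at 72 h with DMSO, a change of -4.59 ± 0.11 or 24.1-fold lower (adjusted p = 2.11e-07) and of -4.51 with DMSO. Gja1, the gap junction protein connexin 43 and also outside the list, fell by 2.47 ± 0.14 (-1.51 over 6 probe sets).

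Genes of ribosome biogenesis fell in 28 of 40 measured and none rose (median -0.45), and 36 fell with DMSO (median -0.66). The time change was higher, that is the fall smaller, with MEKi in 3. That count went from 0 without any of DMSO 24 h replicates 1 to 3 or MEKi 24 h replicates 1 and 2 to 10 without MEKi 24 h replicate 3. Rrp1b, a nucleolar factor, was 9.18, 9.15 and 9.42 at 24 h and 8.04, 7.93 and 7.96 at 72 h, a change of -1.27 ± 0.09 (-0.73 over 3 probe sets). Heatr1 changed by -0.80 ± 0.09 (-0.45 over 3 probe sets), Bop1 by -0.77 ± 0.08 and Nolc1 by -0.73 ± 0.11, all factors of ribosomal RNA synthesis or processing. Cytosolic ribosomal protein genes had a median of -0.04, with 1 of 31 higher and 2 lower. Of 31 oxidative phosphorylation genes 8 fell and 1 rose (median -0.11), against 16% and 13.5% of all genes. Only 5 fell without MEKi 24 h replicate 2 or MEKi 72 h replicate 2. Sdhd of complex II changed by -0.49 ± 0.07. Ppargc1a, the coactivator of mitochondrial genes and outside this list, was 10.97, 10.63 and 10.37 at 24 h and 10.03, 9.66 and 9.89 at 72 h. It changed by -0.80 ± 0.15 (adjusted p = 0.00375), with 0.26 in DMSO, and the contrast of the 2 is not given here.

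Of 20 cholesterol synthesis genes 7 fell and 1 rose (median -0.18), whereas with DMSO 4 rose and 1 fell (median 0.27). No time change was called different between the treatments, whereas 3 were lower with MEKi with the replicate block, and without DMSO 72 h replicate 3, whose cholesterol genes were low, 11 of 20 were lower with MEKi. Idi1, an isomerase of the pathway, was 11.06, 11.26 and 10.99 at 24 h and 10.42, 10.16 and 10.07 at 72 h, a change of -0.89 ± 0.11 (adjusted p = 0.000377). Hsd17b7 changed by -0.85 ± 0.12 (-0.53 over 4 probe sets). Mvd, which decarboxylates mevalonate, was 8.61, 8.78 and 8.61 at 24 h and 8.22, 8.04 and 8.08 at 72 h with MEKi and 8.20, 8.29 and 8.04 at 24 h and 8.93, 8.97 and 7.88 at 72 h with DMSO. It changed by -0.55 ± 0.08 (adjusted p = 0.00128), a call that was lost when the 12 arrays shared a fit (0.067). Hmgcs1, the synthase that starts the pathway, was 11.61, 11.76 and 11.39 at 24 h and 11.37, 11.15 and 10.88 at 72 h, with the highest array at 72 h just under the lowest at 24 h (-0.45 ± 0.13, adjusted p = 0.0333). It was not called with all 12 arrays in 1 fit (0.0651), after a further quantile normalization (0.0503), or without MEKi 24 h replicate 1 or 2 or MEKi 72 h replicate 2 or 3 (0.0763 to 0.111). Tm7sf2, a sterol reductase, rose by 0.65 ± 0.09.

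Of 15 fatty acid synthesis genes 4 fell and 3 rose. Elovl6, an elongase, was 10.19, 10.31 and 10.36 at 24 h and 8.98, 8.92 and 8.91 at 72 h, a change of -1.35 ± 0.08 (-0.66 over 3 probe sets). Fasn, fatty acid synthase, changed by -0.71 ± 0.09, and Acaca, the carboxylase of the committed step, by -0.68 ± 0.07 (-0.35 over 2 probe sets). The 3 that rose did so by at most 0.31, and none rose without MEKi 24 h replicate 1 or MEKi 72 h replicate 1. Of 22 lipid droplet and fatty acid oxidation genes 11 rose and 1 fell (median 0.28), against 13.5% and 16% of all genes. Leaving out 1 array gave 8 to 10 higher, and centred arrays gave 8. For these genes DMSO gave 7 higher and none lower (median 0.14). Acadvl, the very long-chain acyl-CoA dehydrogenase, was 10.01, 9.95 and 10.04 at 24 h and 10.99, 11.09 and 10.98 at 72 h, a rise of 1.02 ± 0.07 against 0.30 with DMSO (difference 0.72 ± 0.10, adjusted p = 0.00293). G0s2, an inhibitor of the lipase ATGL, rose by 0.89 ± 0.21.

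Most melanocyte genes were not called. Of 18 melanin and melanosome genes 6 fell and 1 rose (median -0.06), against 16% and 13.5% of all genes, with 3 lower without MEKi 24 h replicate 1 or MEKi 72 h replicate 2. Of 11 lineage regulators 2 fell, near the 16% of all genes, or 1 without any 1 of the MEKi 24 h arrays or MEKi 72 h replicate 2. Mitf, the lineage factor, was 13.05, 13.12 and 13.01 at 24 h and 12.71, 12.17 and 13.00 at 72 h. Replicate 2 was the lowest and replicate 3 lay just under the 24 h arrays, and the difference of -0.43 ± 0.17 was not called (adjusted p = 0.0968). It was called without MEKi 72 h replicate 3 (-0.62, adjusted p = 0.0161) and with array weights (-0.49, adjusted p = 0.0422). Tyr, tyrosinase, was 12.95, 13.00 and 12.89 at 24 h and 13.06, 13.00 and 13.08 at 72 h (0.10 ± 0.07, adjusted p = 0.352). The antigens Pmel (0.00 ± 0.07) and Mlana (-0.04 ± 0.07) were not called either, at signals of 14.08 to 14.18, near the highest value of the table, 14.47. Mlph, the melanosome transport protein melanophilin, was 11.22, 11.37 and 11.34 at 24 h and 10.30, 10.26 and 10.07 at 72 h, a change of -1.10 ± 0.09 (adjusted p = 3.99e-05; -1.51 with DMSO). Slc24a4, a calcium exchanger, was 9.59, 9.89 and 9.59 at 24 h and 8.93, 8.27 and 8.70 at 72 h, a change of -1.06 ± 0.16 with 0.32 in DMSO. The difference was -1.37 ± 0.28 (adjusted p = 0.0195), which was not called without DMSO 24 h replicate 3, MEKi 24 h replicate 2 or MEKi 72 h replicate 2 (0.0526 to 0.0583). Tfap2a, a melanocyte and neural crest factor, fell by 0.71 ± 0.07. Of 22 genes of a neural crest-like state 4 rose and 2 fell, against 13.5% and 16% of all genes, or 2 and 1 without MEKi 24 h replicate 2. Snai2, the factor SLUG, changed by -1.11 ± 0.14.

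Receptor tyrosine kinase genes rose in 8 of 29 measured and fell in 1 (median 0.18), against 13.5% and 16% of all genes. They rose in 4 or 5 without MEKi 24 h replicate 1 or 3 or MEKi 72 h replicate 1. DMSO gave 7 higher and 3 lower (median 0.13). The time change was higher with MEKi in 2 of the 29 and lower in none, against 1.97% and 2.1% of all genes. Erbb3, the neuregulin receptor, was 9.15, 9.21 and 9.24 at 24 h and 10.05, 10.27 and 10.13 at 72 h with MEKi and 10.05, 10.06 and 10.06 at 24 h and 9.63, 9.90 and 9.71 at 72 h with DMSO. It rose by 0.95 ± 0.08 (adjusted p = 5.6e-05) while it fell by 0.31 with DMSO, and the difference was 1.26 ± 0.12 (adjusted p = 0.000205). Over its 2 probe sets the rise was 0.51 and the difference 0.62. Ddr2, a collagen receptor, rose by 0.47 ± 0.09. Of 19 FOXO and PI3K genes 6 rose and 2 fell, against 13.5% and 16% of all genes. Only 1 fell without any 1 of the MEKi 24 h arrays or MEKi 72 h replicate 2. For these genes DMSO gave 7 higher and 3 lower. Pik3ip1, an inhibitor of PI3K, rose by 1.02 ± 0.11, Ccng2, a FOXO-induced cyclin, by 0.82 ± 0.13 (1.96 with DMSO), and Irs1, the insulin receptor adaptor, fell by 0.88 ± 0.11. The contrast of the 2 Ccng2 changes is not given here.

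In the BCL2 family 4 of 14 measured genes rose and 2 fell, against 13.5% and 16% of all genes. For these genes DMSO gave 5 higher and 3 lower. Bid, a BH3 protein that death receptors activate, was 8.09, 8.09 and 8.34 at 24 h and 9.13, 9.23 and 9.18 at 72 h, a rise of 1.01 ± 0.09 against 0.32 with DMSO (difference 0.69 ± 0.11, adjusted p = 0.00622). Bcl2l11, the BH3 protein BIM that ERK marks for degradation, was 6.74, 6.66 and 6.34 at 24 h and 6.30, 6.09 and 6.12 at 72 h with MEKi and 6.31, 6.26 and 6.33 at 24 h and 6.96, 6.63 and 6.74 at 72 h with DMSO. It fell by 0.41 ± 0.11 (adjusted p = 0.0248), which was not called without MEKi 24 h replicate 1 or 2 or MEKi 72 h replicate 2 or 3 (0.0662 to 0.0927) or as the mean over its 5 probe sets (-0.16, adjusted p = 0.104). It rose by 0.48 with DMSO, and the difference was -0.89 ± 0.15 (adjusted p = 0.00852; -0.46 over its probe sets). Bbc3, the BH3 protein PUMA, rose by 0.64 ± 0.09.

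Among the lysosome and autophagy genes, 13 of the 33 measured rose and 2 fell (median 0.17), against 14 and 3 with DMSO (median 0.15). The time change was higher with MEKi in 4 and lower in none. That count of 4 went to 1 without DMSO 24 h replicate 1 or 2 or DMSO 72 h replicate 3. It was also 1 without MEKi 24 h replicate 1 or 3 or MEKi 72 h replicate 2. Gabarapl1, an autophagosome protein, was 10.86, 10.85 and 10.70 at 24 h and 11.75, 11.90 and 11.68 at 72 h, a rise of 0.97 ± 0.09 (0.48 with DMSO). The hydrolases Neu1 (0.72 ± 0.07; 0.42 over 3 probe sets) and Naglu (0.70 ± 0.12) also rose. Of 20 endoplasmic reticulum chaperones 5 rose, or 2 without MEKi 24 h replicate 3 or MEKi 72 h replicate 2, with Pdia4 at 0.72 ± 0.09. Of 6 metal handling genes 3 fell. The CLEAR letters TCACGTG stood in 28.6% of 28 lysosome windows and in 5.12% of all windows.

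Among 44 genes of the extracellular matrix 10 were higher and 9 were lower at 72 h (median 0.03), against 13.5% and 16% of all genes. Leaving out 1 array gave 7 to 11 higher and 6 to 8 lower. Col1a2, a chain of type I collagen, was 7.24, 7.33 and 7.51 at 24 h and 5.80, 5.83 and 5.47 at 72 h, a change of -1.66 ± 0.11 (-1.07 over 3 probe sets). Fbln1, fibulin 1, was 10.90, 10.82 and 10.73 at 24 h and 10.26, 10.22 and 10.41 at 72 h, a change of -0.52 ± 0.08 while it rose by 0.45 with DMSO (difference -0.97 ± 0.11, adjusted p = 0.000774). Timp3, a protease inhibitor, rose by 1.23 ± 0.12, and Mmp11, a metalloprotease, by 1.04 ± 0.12. Col14a1, a collagen of the fibril surface that is outside the list, was 7.42, 7.41 and 7.11 at 24 h and 4.99, 4.96 and 5.55 at 72 h. It changed by -2.15 ± 0.16 with 0.07 in DMSO (difference -2.22 ± 0.21, adjusted p = 0.000262), and by -1.02 with a difference of -1.03 over its 3 probe sets.

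**Figure D5:**
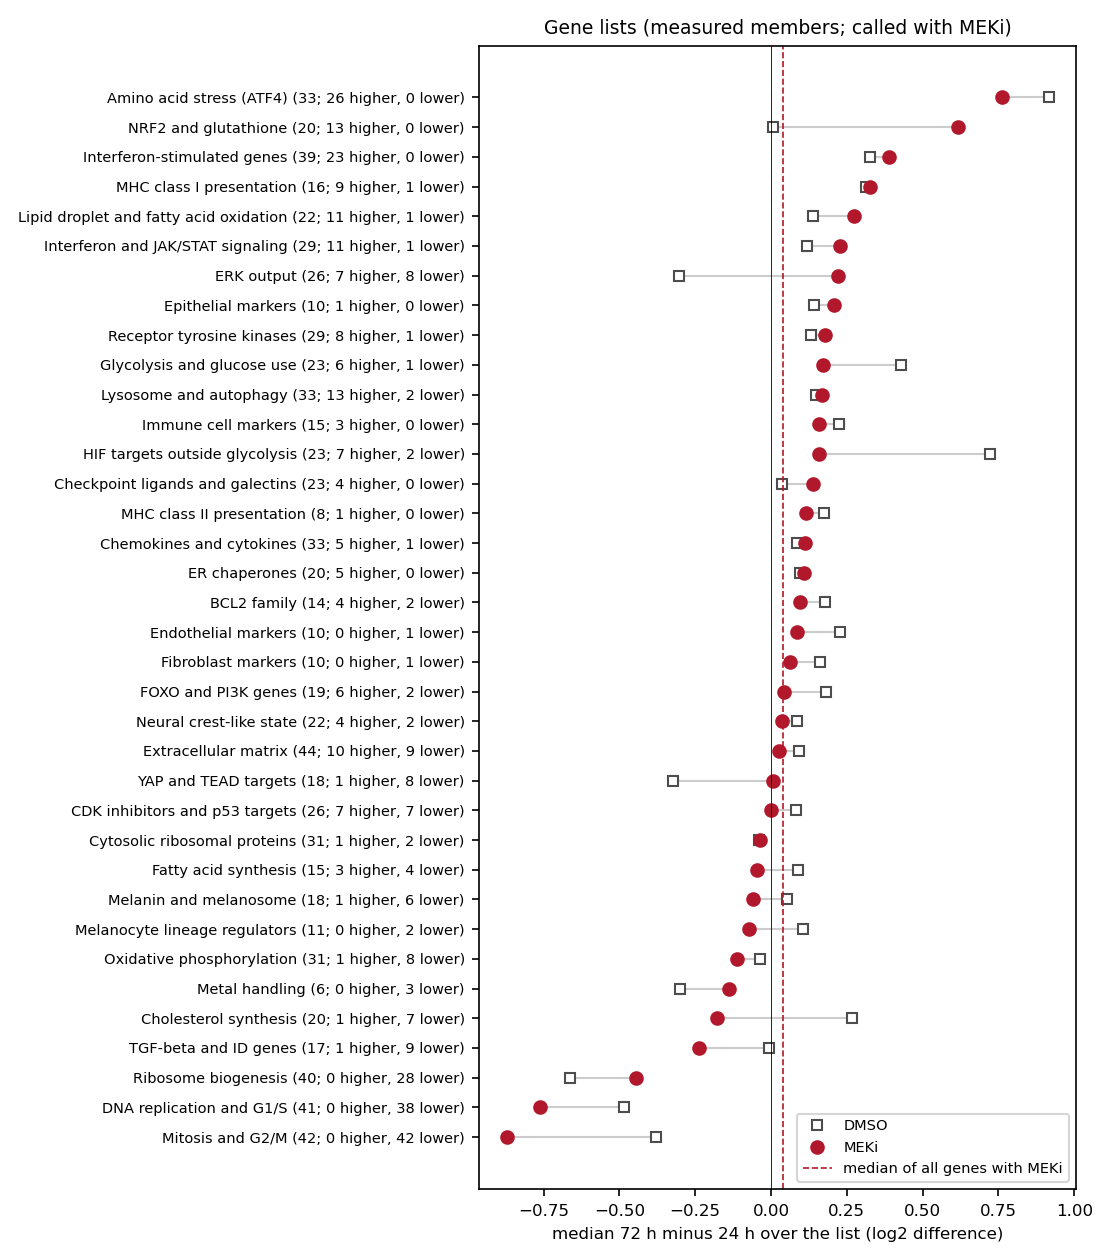
The median log2 difference between 72 h and 24 h over the measured genes of 36 lists, with filled circles for MEKi and open squares for DMSO. The numbers beside each name are the measured genes and those called higher and lower with MEKi, and the dashed line is the median of all genes (0.04). The amino acid stress list is the highest with MEKi (0.76) and the mitosis list the lowest (-0.87), and the NRF2, HIF, cholesterol, ERK and mitosis lists show wide gaps between the treatments.

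Other genes with large changes belonged to none of the groups above. Fbxo2, which recognises glycoproteins for degradation, was 8.45, 8.21 and 8.25 at 24 h and 11.07, 11.05 and 11.18 at 72 h, a rise of 2.80 ± 0.09 (adjusted p = 6.7e-07; difference from DMSO 1.23 ± 0.16, adjusted p = 0.00189). Uchl1, a neuronal deubiquitinase, was 7.58, 7.64 and 7.96 at 24 h and 9.89, 9.94 and 9.95 at 72 h, a rise of 2.20 ± 0.10 (difference 1.65 ± 0.17, adjusted p = 0.000457). Mocos, the molybdenum cofactor sulfurase, rose by 2.34 ± 0.12 (difference 1.43 ± 0.27, adjusted p = 0.0128), and Mllt11 by 2.13 ± 0.12 (1.27 over 2 probe sets; difference 1.83 ± 0.18, adjusted p = 0.000379, or 1.01 over those probe sets). Kcnj13, a potassium channel found in pigment epithelium, was 7.29, 6.98 and 6.02 at 24 h and 10.56, 9.12 and 9.08 at 72 h, a rise of 2.82 ± 0.41. Among falling genes were Chn2, a RAC GTPase-activating protein (-2.81 ± 0.24), Dync1i1, a dynein intermediate chain (-2.68 ± 0.18), Slc26a7, an anion exchanger (-2.40 ± 0.09), Mex3b, an RNA-binding protein (-1.91 ± 0.16), Pmp2, a myelin lipid-binding protein (-1.89 ± 0.10), and Bcan, the proteoglycan brevican (-1.88 ± 0.17). For these 6 the difference from DMSO was not called. Ano3, of the anoctamin family, was 8.53, 8.54 and 8.08 at 24 h and 6.41, 6.42 and 5.95 at 72 h, a change of -2.12 ± 0.16 (difference -1.07 ± 0.20, adjusted p = 0.0114).

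Some genes moved in opposite directions in the 2 treatments, with calls in each treatment and for the difference. In 22 genes MEKi gave a rise and DMSO a fall, and in 36 MEKi gave a fall and DMSO a rise. Tmem179, a membrane protein, was 6.82, 6.67 and 6.85 at 24 h and 8.05, 8.33 and 7.81 at 72 h with MEKi and 8.31, 8.19 and 8.08 at 24 h and 6.94, 6.80 and 6.23 at 72 h with DMSO. It rose by 1.28 ± 0.12 while it fell by 1.54 with DMSO, and the difference was 2.82 ± 0.23 (adjusted p = 0.000132). Ecm1, a secreted matrix protein, was 6.21, 6.42 and 6.24 at 24 h and 7.69, 7.73 and 7.41 at 72 h with MEKi and 6.15, 6.09 and 6.20 at 24 h and 5.90, 5.74 and 5.47 at 72 h with DMSO (difference 1.76 ± 0.16, adjusted p = 0.000205). Cela1, an elastase, rose by 1.09 ± 0.11 with a difference of 1.77 ± 0.21 (adjusted p = 0.00111). In the other direction Adam19, a membrane protease, was 7.42, 7.37 and 7.70 at 24 h and 6.82, 6.53 and 7.11 at 72 h with MEKi and 7.22, 7.01 and 7.31 at 24 h and 8.06, 7.75 and 8.13 at 72 h with DMSO (difference -1.48 ± 0.20, adjusted p = 0.00289). Map2k6, the kinase MKK6 that activates p38, fell with MEKi and was not called with DMSO. It was 7.14, 7.24 and 7.10 at 24 h and 5.66, 5.45 and 6.01 at 72 h with MEKi and 6.98, 7.07 and 7.01 at 24 h and 7.25, 7.35 and 6.92 at 72 h with DMSO, a change of -1.45 ± 0.13 and a difference of -1.61 ± 0.18 (adjusted p = 0.000957). A further 52 genes rose in both treatments by more with MEKi and 26 by less, and 95 fell in both by more with MEKi and 29 by less.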

How the data were processed

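Each of 12 RNA samples was labelled by 3' IVT and hybridised to its own Affymetrix mouse expression array. The authors background-corrected, normalized and summarized the arrays by RMA, and the values they deposited are log2 signals, from 2.21 to 14.47. Software versions are not given in the sources used here. The deposited log2 values were used with no further normalization or filter. RMA scales the arrays to each other, so a shift shared by most genes cannot be told apart from scaling. The deposited distributions still differed between the times. With MEKi the array median was 5.33 to 5.34 at 24 h and 5.39 to 5.42 at 72 h. The interquartile range was 4.24 to 4.26 at 24 h and 4.06 to 4.07 at 72 h. Arrays give no counts, and their number limits the precision.

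Groups came from the sample titles. Of 45101 probe sets 64 controls were kept as technical measures and 45037 were tested. In the annotation 34945 of these had a single gene, 9160 had no gene and 932 had several. Each gene was read by its own probe set with the highest mean over the 12 arrays, which gave 18193 genes, and genes without such a probe set were not analysed here. Each time change was a limma fit (version 3.58.1, R 4.3.3) on its own 6 arrays with empirical Bayes moderation, as the study's methods describe for pairs of groups of tumor RNA on this array type. The difference of the time changes was a contrast on 12 arrays. P-values were two-sided and adjusted by Benjamini-Hochberg over 45037 probe sets. Technical measures were compared by exact two-sided permutation tests. The fits were tested on simulated data.

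The comparison, the 37 gene lists, the motifs and the named genes were chosen with earlier results of these data known, so lists are described by counts and medians beside all genes, and no set test was run. The rule for named genes took the 15 highest and 15 lowest called genes of the MEKi time change and the 10 highest and lowest of the difference, if the arrays of the times did not overlap and the higher group mean reached the median probe set mean (5.363). It added up to 4 called members of each list in each direction and a fixed set of marker genes. The text leaves out some of these, and names others to identify members of small counts. Promoter windows of RefSeq (GRCm38.p6) covered 250 bases before and 50 after the start and were matched by symbol for 14452 genes. Alternatives left out each array in turn, blocked on the replicate number, put all 12 arrays in 1 fit, kept brighter probe sets, centred arrays on their median, normalized by quantiles again, averaged the probe sets of a gene, weighted the arrays, used a trended and robust prior, or asked for a change of at least 2-fold.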

Additional observations from a re-analysis of the deposited data

Results flagged for a closer look

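The values here are differences between the time changes of the treatments, MEKi minus DMSO, on the log2 scale, for genes whose difference passed the limma contrast over all 12 arrays. They stand here because a gene's change from 24 to 72 h differed between drug and solvent. Groups of 3 arrays were too small for a test of single outlying arrays.

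In the cell cycle the time change was lower with MEKi for E2f8 (-0.89), Ttk (-0.66), Cenpe (-0.61), Top2a (-0.60), Cdc25b (-0.59) and Mki67 (-0.51), and among p53 targets for Zmat3 (-0.81) and Phlda3 (-0.73). In the ERK pathway it was higher for Etv5 (2.77), Spry4 (1.50) and Spred3 (0.88). Among genes of oxidant defence and cystine uptake it was higher for Srxn1 (2.00), Slc7a11 (1.95), Blvrb (1.81), Gclm (1.65), Taldo1 (1.07), Gsr (1.00), Pgd (0.87) and Sqstm1 (0.86) and lower for Gsta2 (-1.29). Among stress, hypoxia and glucose genes it was lower for Ndrg1 (-1.83), Pdk1 (-1.61), Ddit4 (-1.58), Bnip3 (-1.55), Vldlr (-1.55), Aldoc (-1.39), Slc16a3 (-1.21), Hk2 (-1.05), Bhlhe40 (-0.86) and Pkm (-0.40) and higher for Eno2 (1.46).

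Among interferon and chemokine genes the time change was higher with MEKi for Cxcl10 (1.77), Ccl5 (1.34), Ifit1 (1.02), Trim25 (0.82) and Ifit3 (0.70). For signaling, lipid and cell death genes it was higher for Erbb3 (1.26), Tgfb1 (0.87), Acadvl (0.72), F3 (0.69) and Bid (0.69) and lower for Bcl2l11 (-0.89). For matrix and melanosome genes it was lower for Col14a1 (-2.22), Slc24a4 (-1.37) and Fbln1 (-0.97). Of the other genes it was higher for Tmem179 (2.82), Mllt11 (1.83), Cela1 (1.77), Ecm1 (1.76), Uchl1 (1.65), Mocos (1.43) and Fbxo2 (1.23) and lower for Map2k6 (-1.61), Adam19 (-1.48) and Ano3 (-1.07). Each difference stands above with its error and adjusted p.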

How the results depend on the processing

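The 3 arrays per group limit these results, as do the confounding of harvest with time and the choice of 1 probe set for a gene. Of 194 gene values in the text, 176 kept their direction and their side of the threshold under every alternative, and the others are given with their genes. With each array centred on its median, 3128 probe sets rose with MEKi and 3363 with DMSO. Asking for a change of at least 2-fold left 263 higher and 425 lower with MEKi, 335 and 366 with DMSO, and 68 and 118 for the difference of the time changes. That difference gave 1090 higher and 1211 lower among the brighter probe sets alone, 951 and 1155 with a trended and robust prior, and 1148 and 1458 with array weights. Leaving out 1 array gave 3470 to 4310 higher and 4939 to 5562 lower with MEKi, 3298 to 4706 and 4892 to 6126 with DMSO, and 275 to 772 and 393 to 1026 for the difference, which here compares fewer arrays. The cause of these shifts was not tested. The median of the fatty acid synthesis list (-0.05) turned to 0.024 after quantile normalization again, 0.01 as the mean over probe sets, and lay between -0.078 and 0.012 on leaving out 1 array, the highest without MEKi 72 h replicate 1. The median of the extracellular matrix list (0.03) turned to -0.01 among brighter probe sets, -0.045 with centred arrays and -0.006 after quantile normalization again.

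The replicate numbers did not pair the MEKi arrays of the 2 times, and between the treatments every pair passed 0.1 at 72 h but not at 24 h. Deviations from the group means of MEKi arrays with the same number at 24 and 72 h correlated at 0.072, -0.017 and 0.107. Between DMSO and MEKi arrays of the same number they correlated at 0.073, 0.125 and 0.151 at 24 h and 0.189, 0.163 and 0.13 at 72 h, and within each time every array correlated best with its own number, a hint from the data only. With the number as a replicate block 4845 probe sets were higher and 5988 lower with MEKi, 4478 and 5935 with DMSO, and 804 and 1040 for the difference. With the block Fos was called (0.93, adjusted p = 0.0146), the time change was lower with MEKi in 10 HIF, 9 glycolysis and 3 cholesterol genes, and it was higher in 7 ribosome biogenesis genes. With centred arrays 14 oxidative phosphorylation genes fell with MEKi, and 7 interferon and JAK/STAT signaling genes, 4 receptor tyrosine kinases and 3 chaperones rose. Among brighter probe sets the difference was lower in 10 replication and 10 glycolysis genes and higher in 7 lysosome genes.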
